A study of Mus musculus with 18 samples.

Results

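A set of 10 genes widely used to mark fibroblasts, other than the collagens, was followed in organoids grown from mouse mammary epithelium: Dcn, Lum, Fbln1, Fbln2, Pdgfra, Pdgfrb, Thy1, Fap, Gsn and Vim. The genes were named with earlier results of these data known. Estradiol counts were listed by Ensembl identifier, with the symbols of these genes taken from the deposited normalized values. The genes were found by symbol in both experiments, 10 of 56691 features in the estradiol table and 10 of 56893 in the Torin table. All 10 passed the filter on low counts in both, among 15358 and 18112 genes tested. The organoids came from wild-type nulliparous C57BL/6 mice, with 3 mammary glands from 3 mice as the source, and the labels call the cells epithelial. They were grown in EpiCult-B medium, a culture medium for mouse mammary epithelium, with 5% serum in the first 24 h. In the estradiol experiment, organoids of mice aged about 24 weeks received 10 nM estradiol or 96% ethanol as its vehicle for 11 of 12 days of culture. In the Torin experiment, organoids of mice aged about 15 weeks were kept for 18 days in Matrigel, a basement membrane extract that was topped up after 12 days, and received 100 nM Torin 1, which blocks the growth-controlling kinase mTOR, or DMSO as its vehicle. That experiment had a pair of arms, D6 and D12, each with its own DMSO libraries. The labels and the series text give the treatment lengths of 6 and 12 days to these arms in opposite ways. A tag named batch reads 6 days for D6 and 12 days for D12, which only repeats the arm. Length, start and any batch cannot be told apart. Each of the 6 groups held 3 libraries of polyadenylated RNA. What separates replicates (mice, cultures or wells) is not stated, so p-values measure the spread between these libraries, which may be technical.

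Fibroblasts of the mammary gland lie in the stroma around the epithelial ducts and make much of the matrix there. Dcn and Lum are small leucine-rich proteoglycans that bind collagen fibrils. The fibulins Fbln1 and Fbln2 are secreted glycoproteins of basement membranes and elastic fibres, Pdgfra and Pdgfrb are receptor tyrosine kinases for platelet-derived growth factors, Thy1 is a surface glycoprotein held by a lipid anchor, and Fap is a surface serine peptidase of activated fibroblasts. Gsn cuts and caps actin filaments, and Vim forms the intermediate filaments of mesenchymal cells. Several of these genes are not exclusive to fibroblasts: Pdgfrb also marks pericytes, and epithelial and myoepithelial cells can carry Vim, Gsn and fibulin transcripts.

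Library totals ran from 20637473 to 28910688 counts. Levels are given as CPM, counts relative to the library total after scaling by TMM, a normalization that balances libraries on the bulk of their genes. The labelled cell type was matched by the markers: the summed level of 12 pan-epithelial genes (among them Epcam and the keratins Krt5, Krt14 and Krt18) was 12799 to 13364 CPM in ethanol and 7971 to 9399 CPM in DMSO D6 libraries. The summed level of the 10 fibroblast genes was 828 to 881 CPM in ethanol and 1317 to 1393 CPM in DMSO D6 libraries. Most of it came from Fbln2, Vim and Gsn, which epithelium can also carry. Their means were 343, 298 and 135 CPM in ethanol and 623, 148 and 362 CPM in DMSO D6. Dcn, Lum and Pdgfra were at 10.3, 3.24 and 11.3 CPM in ethanol and 88.5, 43.4 and 16.6 CPM in DMSO D6. Adipocyte markers summed to at most 1.16 CPM in any library and endothelial markers to at most 20.01 CPM. The 10 immune markers summed to 2352 to 2867 CPM in DMSO D6 and 2162 to 2350.1 CPM in Torin D6, nearly all of it from Cd14, a receptor that epithelium can also carry, at 2563 and 2285 CPM. Of the other immune markers, Cd68, Ptprc and Csf1r had group means of up to 7.38 CPM in the D6 arm. Adgre1, C1qa, C1qb, Cd3e and Cd79a were at 0 in the Torin D6 libraries. The third Torin library of each arm stood apart from its group: the chi-square per degree of freedom between it and the other 2 was 41.6 to 121, against 3.52 to 18.8 for the other pairs of replicates. Results that change without these libraries are given both ways.

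**Figure D1:**
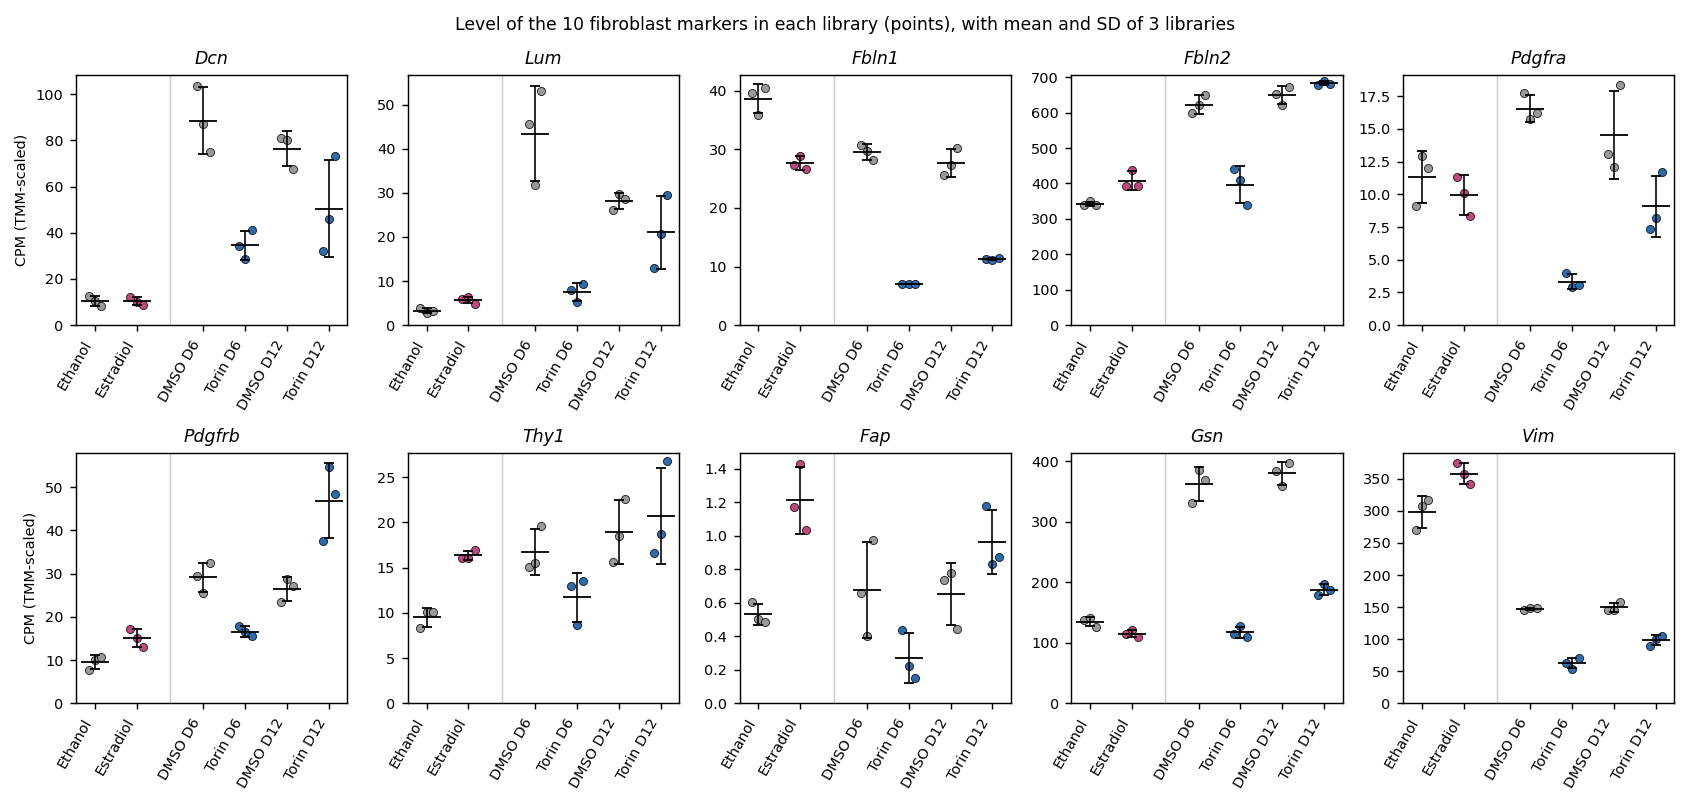
Level of each of the 10 genes in CPM (linear axes from 0), 1 panel per gene, with 1 point per library and the mean and SD of 3 libraries for the 6 groups; the vertical line separates the experiments, which were normalized separately. In the Torin D6 libraries Fbln1, Pdgfra, Gsn and Vim lie below every DMSO D6 library, whereas Pdgfrb in Torin D12 lies above every DMSO D12 library.

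Torin lowered most of the 10 genes in the D6 arm and fewer in the D12 arm, and estradiol raised more of them than it lowered. In D6, 9 fell in edgeR's quasi-likelihood test at an adjusted p under 0.05 (Benjamini-Hochberg over all genes tested), and Thy1 did not pass. In that comparison 39.1% of all genes tested were called, 19.3% lower and 19.8% higher. In D12, Fbln1, Pdgfra, Gsn and Vim fell, Pdgfrb rose, and the other 5 did not pass, where 25.4% of all genes were called, 14.6% lower and 10.8% higher. Against ethanol, estradiol raised Lum, Fbln2, Pdgfrb, Thy1, Fap and Vim and lowered Fbln1 and Gsn, and Dcn and Pdgfra did not pass, where 34% of all genes were called, 17.4% higher and 16.6% lower. The median log2 fold change of the 10 genes was −1.33 in D6, −0.51 in D12 and 0.26 with estradiol, beside 0.049, 0.012 and −0.006 over all genes tested. A fold of at least 2 was reached by 7 genes in D6, 2 in D12 and 1 with estradiol, beside 16%, 7.79% and 4.08% of all genes. The libraries of the compared groups did not overlap for 9 of the 10 in D6, 7 in D12 and 8 with estradiol, beside 48.5%, 43.7% and 46.4% of all genes. In these bulk samples fewer cells of a type and less RNA per cell cannot be told apart.

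**Figure D2:**
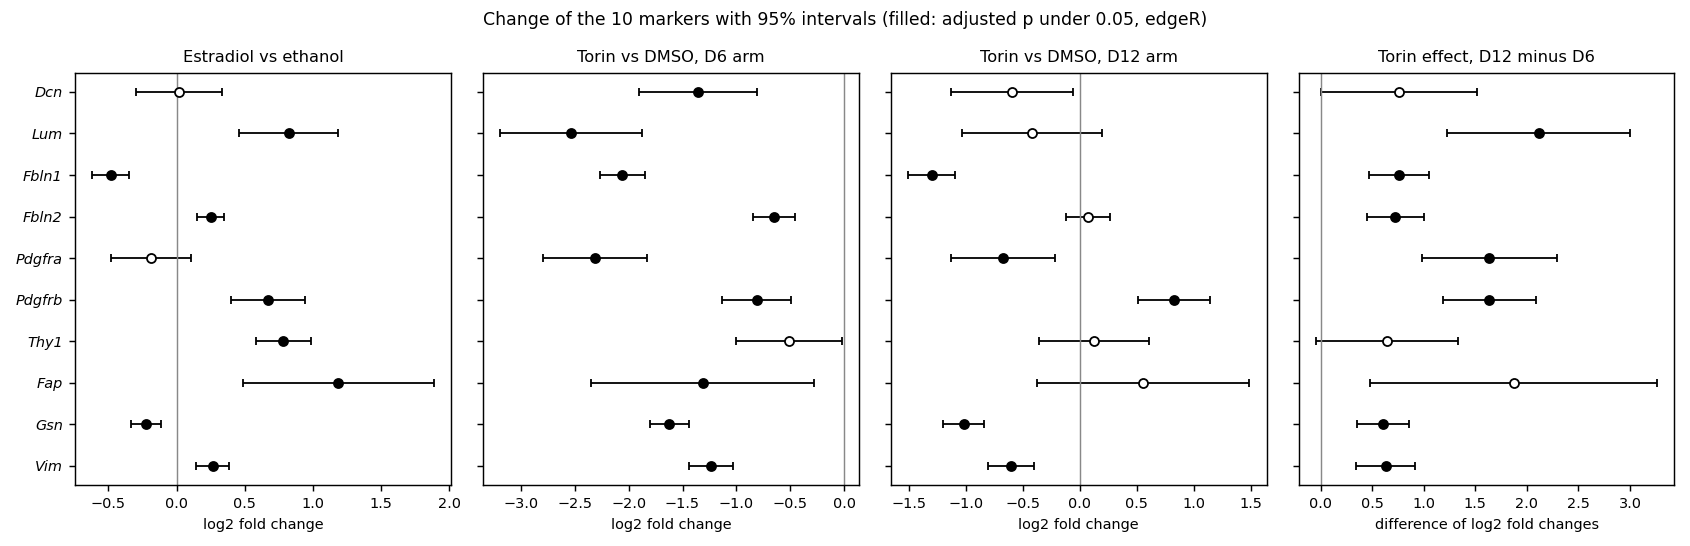
Log2 fold change of each gene against its own vehicle in the first 3 panels, and the difference of the Torin effects (D12 minus D6) in the last, with 95% intervals from edgeR; filled points passed an adjusted p of 0.05, and each panel has its own horizontal scale. All 10 estimates are below 0 in the D6 panel and above 0 in the panel of the difference.

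Both proteoglycans fell with Torin in the D6 arm, and Lum rose with estradiol. Decorin transcripts stood at 104, 87.2 and 74.8 CPM in the DMSO D6 libraries and at 34.1, 28.6 and 41.1 CPM in Torin D6, which did not overlap. The fall was 2.56-fold, a log2 fold change of −1.36 ± 0.25 (SE; adjusted p = 0.00114). In the D12 arm Dcn stood at 81.1, 80.3 and 67.7 CPM with DMSO and at 32.2, 46.1 and 73.2 CPM with Torin. The third Torin library lay inside the DMSO range, and the log2 fold change of −0.60 ± 0.25 (SE; adjusted p = 0.0993) did not pass. Without the third Torin library of both arms it was −0.95 with an adjusted p of 0.000289, and without that library alone −0.96 with 0.00507. Estradiol left Dcn at 12.4, 10.2 and 8.87 CPM beside 12.6, 10.3 and 8.20 CPM in ethanol. These groups overlapped, with a log2 fold change of 0.015 ± 0.15 (SE; adjusted p = 0.947) and a 95% interval of −0.30 to 0.33.

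Lumican transcripts were at 45.6, 31.7 and 53.0 CPM in DMSO D6 and at 7.86, 5.25 and 9.41 CPM in Torin D6. Every Torin library was lower than every DMSO library, and the 5.79-fold fall, −2.53 ± 0.30 (SE; adjusted p = 4.37e-05), was the largest among the 10 genes in any comparison. In D12 the DMSO libraries gave 26.0, 29.6 and 28.6 CPM and the Torin libraries 12.99, 20.7 and 29.5 CPM. The third Torin library again reached the DMSO range, and the log2 fold change of −0.42 ± 0.28 (SE; adjusted p = 0.326) did not pass. Without the third Torin library of both arms it was −0.72 with an adjusted p of 0.0207. Without Torin D12 replicate 3 alone it was −0.74 and did not pass (adjusted p 0.0776), nor did it with any other single library left out. Estradiol raised Lum from 3.84, 2.68 and 3.20 CPM in ethanol to 5.97, 6.31 and 4.88 CPM, by 1.77-fold (log2 fold change 0.82 ± 0.17 SE, adjusted p = 0.00177), with no overlap.

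The other small leucine-rich proteoglycans were a list of 10 genes, of which 7 were tested in the Torin and 8 in the estradiol experiment. In D6, 4 fell and 1 rose. Prelp, a proteoglycan that anchors basement membrane to connective tissue, fell by 2.18 ± 0.081 (SE) on the log2 scale from 363 to 80.1 CPM, and Bgn, the closest relative of Dcn, from 428 to 143 CPM. In D12, 4 fell and 2 rose, with Prelp at −0.55 ± 0.078 and Chad, a cartilage member of the family, at 2.75 ± 0.43 from a low 0.423 CPM. With estradiol 4 rose and 2 fell, with Chad at 2.89 ± 0.22 and Prelp at −0.37 ± 0.059.

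The fibulins differed in size of response, and Fbln1 fell in all 3 comparisons. Fbln1 stood at 30.7, 29.7 and 28.1 CPM in DMSO D6 and at 7.08, 7.09 and 7.09 CPM in Torin D6, a 4.16-fold fall (log2 fold change −2.06 ± 0.097 SE, adjusted p = 3.44e-08). The third Torin library did not stand apart for this gene. In D12 the DMSO libraries gave 25.5, 27.4 and 30.3 CPM and the Torin libraries 11.3, 11.1 and 11.4 CPM, a 2.46-fold fall (log2 fold change −1.30 ± 0.094 SE, adjusted p = 3.61e-06). With ethanol Fbln1 was at 39.6, 35.9 and 40.5 CPM and with estradiol at 27.4, 28.9 and 26.6 CPM, a 1.40-fold fall (log2 fold change −0.48 ± 0.062 SE, adjusted p = 2.98e-05). In each of these comparisons the groups did not overlap.

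Fbln2, its nearest relative among the genes followed here, had smaller log2 fold changes with Torin. It stood at 598, 620.1 and 650.0 CPM in DMSO D6 and at 441, 409.7 and 339 CPM in Torin D6, where the third library was the lowest. The log2 fold change was −0.65 ± 0.09 (SE; adjusted p = 0.000141), a 1.57-fold fall. In D12 it stood at 651, 622 and 674 CPM with DMSO and 678, 689.8 and 681 CPM with Torin. The Torin libraries were all slightly above the DMSO libraries, but the log2 fold change of 0.073 ± 0.089 (SE, 95% interval −0.12 to 0.27) did not pass. Estradiol raised it from 339, 349 and 340.3 CPM to 393, 439 and 392 CPM, by 1.19-fold (log2 fold change 0.25 ± 0.046 SE, adjusted p = 0.000706).

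The promoters of both fibulins are shown because the genes moved apart with estradiol. Promoter entries of RefSeq (GRCm38.p6, another build than the GRCm39 of the deposited files), matched by symbol, were used for 5 of the 10 genes. Not every chromosome was searched, so a gene without a window here, such as Pdgfrb, may still have an entry. The 250 bases before the annotated start are given on the plus strand, which is the strand of both genes, 5′ to 3′, for the first of the 2 starts of Fbln1 (chr15:85205699-85205948) and for the single start of Fbln2 (chr6:91212514-91212763). Capitals mark a match, on either strand, to 1 of 5 motifs: AP-1 (TGANTCA), TEAD (GGAATG), the TATA box (TATAAA), the GC box (GGGCGG) and the CArG box of serum response factor. No capitals means that none of these motifs was found in the window.
Fbln1: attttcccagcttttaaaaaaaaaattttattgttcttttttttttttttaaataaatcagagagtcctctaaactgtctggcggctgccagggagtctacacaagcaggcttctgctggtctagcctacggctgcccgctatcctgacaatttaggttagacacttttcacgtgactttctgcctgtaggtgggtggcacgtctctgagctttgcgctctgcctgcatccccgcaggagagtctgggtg
Fbln2: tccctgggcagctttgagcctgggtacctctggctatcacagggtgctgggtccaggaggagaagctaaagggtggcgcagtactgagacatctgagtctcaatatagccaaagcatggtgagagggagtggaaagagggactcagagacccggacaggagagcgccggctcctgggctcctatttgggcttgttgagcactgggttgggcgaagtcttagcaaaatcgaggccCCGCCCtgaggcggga
The Fbln2 window held a GC box on the reverse strand 16 bases before the start, a motif found in 32.7% of 32851 promoter windows of this length. The Fbln1 window had a GC content of 46.4% and 7 CpG sites, and that of Fbln2 58.8% and 8, beside medians of 52.4% and 6 over all windows. The window of the second start of Fbln1, not printed, held a GC box on the reverse strand 11 bases before that start, with a GC content of 62.4% and 14 CpG sites.

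The elastic fibre and other fibulin genes, 19 in the list, split by arm and gene. In D6, 7 fell and 3 rose of 19 tested: the microfibril gene Mfap5 went from 38.3 to 9.31 CPM, and the basement membrane linker Nid1 from 95.3 to 48.3 CPM. The fibulin Fbln5, which helps elastin assemble, rose from 19.4 to 64.5 CPM (log2 fold change 1.73 ± 0.12 SE, adjusted p = 4.96e-07), opposite in sign to Fbln1 and Fbln2. In D12, 6 rose and 2 fell, with Fbln5 at 1.02 ± 0.11 and the fibrillin Fbn2 at 1.89 ± 0.23. With estradiol 5 rose and 2 fell of 18 tested, with the fibrillins Fbn1 at 1.04 ± 0.09 and Fbn2 at 1.21 ± 0.12.

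The PDGF receptors moved in opposite directions in D12. Pdgfra, a receptor commonly used to mark fibroblasts, was at 17.7, 15.8 and 16.2 CPM in DMSO D6 and at 3.999, 2.93 and 3.07 CPM in Torin D6. The groups lay far apart, a 4.96-fold fall (log2 fold change −2.31 ± 0.22 SE, adjusted p = 8.3e-06). In D12 it was at 13.1, 12.1 and 18.4 CPM with DMSO and at 7.37, 8.18 and 11.7 CPM with Torin. The highest Torin library lay just under the lowest DMSO library, and the log2 fold change was −0.67 ± 0.21 (SE; adjusted p = 0.033). That call was lost without DMSO D12 replicate 1 or 3 or Torin D12 replicate 1 or 2, where the log2 fold change was −0.47 to −0.74 and the adjusted p 0.0534 to 0.144. With estradiol Pdgfra stood at 11.4, 10.1 and 8.31 CPM beside 9.07, 12.9 and 12.0 CPM with ethanol. These overlapped, with a log2 fold change of −0.19 ± 0.14 (SE; adjusted p = 0.315) and a 95% interval of −0.48 to 0.10.

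Pdgfrb, the receptor shared by fibroblasts and pericytes, stood at 29.5, 25.5 and 32.4 CPM in DMSO D6 and at 17.9, 16.4 and 15.6 CPM in Torin D6. This was a 1.75-fold fall (log2 fold change −0.81 ± 0.15 SE, adjusted p = 0.000997) with no overlap. In D12 it went from 23.4, 28.9 and 27.1 CPM with DMSO to 37.5, 54.6 and 48.5 CPM with Torin. Every Torin library was above every DMSO library, a 1.77-fold rise (log2 fold change 0.83 ± 0.14 SE, adjusted p = 0.00143), the one called rise among the 10 genes with Torin. Estradiol raised it from 7.65, 10.2 and 10.8 CPM to 17.2, 15.0 and 13.1 CPM, by 1.59-fold (log2 fold change 0.67 ± 0.13 SE, adjusted p = 0.000878).

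Pericyte markers were read beside Pdgfrb. The 8 of them summed to 209.6 to 245 CPM in DMSO D12 and 93.3 to 108 CPM in Torin D12, with most of the DMSO sum from Ndufa4l2, at 138 CPM. The other 7, a grouping made after the values were seen, summed to 85.1 to 98.1 and 71.0 to 88.0 CPM. Of these 7, Rgs5, a pericyte regulator of G protein signalling, rose in D12 from 1.24 to 2.69 CPM, Higd1b was at 0 in DMSO D12, and the proteoglycan gene Cspg4 had a log2 fold change of −0.45 ± 0.22 (SE; adjusted p = 0.162). In D6 Cspg4 fell from 12.5 to 2.02 CPM, and 4 of the 6 pericyte markers tested fell. Ndufa4l2 went there from 117 to 0.289 CPM. The sum of the other 7 in D6 was 85.9 to 97.4 CPM with DMSO and 64.5 to 74.2 CPM with Torin. Most of that DMSO sum came from Notch3 and Mcam, at 56.6 and 21.9 CPM. With estradiol Cspg4 rose from 5.22 to 9.29 CPM and Ndufa4l2 fell from 50.4 to 19.5 CPM. The other 4 tested did not pass, among them Notch3 at −0.099 ± 0.054 (SE; adjusted p = 0.178), and the sum was 349 to 369 CPM in ethanol and 298 to 331 CPM in estradiol libraries. Without Ndufa4l2 the sums overlapped, at 299 to 317 CPM in ethanol and 279 to 311 CPM in estradiol libraries. Most of these came from Notch3 (230 and 214 CPM) and Mcam (69.1 and 71.8 CPM). The part of pericytes in the values of Pdgfrb was not tested.

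The RefSeq window of Pdgfra (GRCm38.p6, chr5:75152001-75152250, plus strand) is shown for the gene with the second largest fall in D6.
Pdgfra: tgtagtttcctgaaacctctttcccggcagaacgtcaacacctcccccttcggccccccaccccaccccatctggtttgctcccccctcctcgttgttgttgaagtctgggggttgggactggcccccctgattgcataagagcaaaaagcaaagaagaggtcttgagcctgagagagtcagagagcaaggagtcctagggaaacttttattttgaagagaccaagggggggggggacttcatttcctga
It held none of the 5 motifs, had a GC content of 54.4% and 4 CpG sites.

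The ligands of these receptors were expressed as well. Of the 4 PDGF ligand genes, Pdgfa, Pdgfc and Pdgfd fell in D6, Pdgfc and Pdgfa fell in D12, and with estradiol Pdgfb rose and Pdgfc and Pdgfa fell. Pdgfc, a ligand of the alpha receptor, stood at 112 CPM in DMSO D6 and 63.5 CPM in Torin D6 (log2 fold change −0.82 ± 0.10 SE, adjusted p = 6.56e-05), and its log2 fold change was −0.58 ± 0.10 in D12 and −0.77 ± 0.046 with estradiol. Pdgfb, which binds both receptors, rose with estradiol from 28.4 to 50.6 CPM (log2 fold change 0.83 ± 0.062 SE, adjusted p = 1.27e-07) and had a log2 fold change of 0.096 ± 0.16 (SE; adjusted p = 0.721) in D12. Kit, a receptor of the same class that luminal progenitors carry, fell in D6 (−0.75 ± 0.11) and with estradiol (−0.38 ± 0.049), and its value in D12 was −0.11 ± 0.11 (SE; adjusted p = 0.551).

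The surface markers Thy1 and Fap rose with estradiol and gave uncertain values with Torin. Thy1 stood at 8.29, 10.1 and 10.1 CPM in ethanol and 16.1, 16.03 and 16.9 CPM in estradiol libraries, a 1.72-fold rise (log2 fold change 0.78 ± 0.095 SE, adjusted p = 1.65e-05), the lowest p among the 10 genes in that comparison. In D6 it was at 15.0, 15.5 and 19.7 CPM with DMSO and 12.98, 8.63 and 13.6 CPM with Torin. The groups did not overlap, but the log2 fold change of −0.51 ± 0.22 (SE; adjusted p = 0.0905) did not pass. It passed without the third Torin library of both arms, at −0.64 with an adjusted p of 0.0159, and without Torin D6 replicate 3 alone (adjusted p 0.0473). In D12 Thy1 was at 15.7, 18.5 and 22.6 CPM with DMSO and 16.6, 18.7 and 26.8 CPM with Torin. These groups overlapped, at 0.13 ± 0.22 (SE; adjusted p = 0.73), and the sign turned to −0.082 without the third Torin libraries.

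Fap had low counts, 36 to 79 counts per group of 3 libraries in the estradiol and 23 to 78 in the Torin experiment. It stood at 0.605, 0.503 and 0.485 CPM in ethanol and 1.17, 1.43 and 1.03 CPM in estradiol libraries. The groups did not overlap, and the rise was 2.27-fold (log2 fold change 1.19 ± 0.33 SE, adjusted p = 0.0116), the largest of the 10 genes with estradiol and the one at 2-fold or more. The call was lost without Estradiol replicate 2 (1.05, adjusted p 0.0603 in edgeR) and in limma on the deposited normalized values (adjusted p 0.0839). In D6 Fap was at 0.660, 0.402 and 0.974 CPM with DMSO and 0.441, 0.225 and 0.152 CPM with Torin. These groups overlapped, and the log2 fold change of −1.31 ± 0.47 (SE; adjusted p = 0.0452) lost its call without DMSO D6 replicate 1 or 3 or Torin D6 replicate 2 or 3, with a range of −0.96 to −1.34 and adjusted p-values of 0.0841 to 0.185. In D12 it was at 0.736, 0.778 and 0.441 CPM with DMSO and 1.18, 0.833 and 0.874 CPM with Torin, at 0.56 ± 0.43 (SE; adjusted p = 0.387). A list of 5 other peptidases was tested: Prep and Dpp9, enzymes found in most cells, rose in D6 (0.85 ± 0.11 and 0.64 ± 0.11), where 4 of the 5 rose and Dpp4 fell from 1.16 to 0.107 CPM. With estradiol 2 of them rose and Dpp4 fell, from 1.62 to 0.765 CPM.

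The cytoskeletal markers fell in both Torin arms. Gsn stood at 331, 386 and 369.9 CPM in DMSO D6 and 115, 128 and 110.3 CPM in Torin D6, a 3.08-fold fall (log2 fold change −1.62 ± 0.083 SE, adjusted p = 6.78e-08). In D12 it was at 384, 360.0 and 397 CPM with DMSO and 179, 197 and 188 CPM with Torin, a 2.03-fold fall (log2 fold change −1.02 ± 0.082 SE, adjusted p = 7.48e-06). The groups lay far apart in both arms. With ethanol Gsn was at 137, 141 and 126 CPM and with estradiol at 114, 122 and 111 CPM, a 1.17-fold fall (log2 fold change −0.22 ± 0.052 SE, adjusted p = 0.00393) with no overlap.

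The gelsolin relatives, actin-binding proteins of which 6 were tested, fell in 4 cases and rose in 1 in D6, and fell in 5 in D12. Capg, the macrophage capping protein gene, which is also found in epithelium, fell in D12 from 409.7 to 191 CPM (log2 fold change −1.10 ± 0.11 SE, adjusted p = 2.21e-05), and Scin from 11.1 to 5.24 CPM. With estradiol 3 rose and 2 fell, and Scin (0.76 ± 0.071) and Capg (0.29 ± 0.04) rose where Gsn fell.

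Vim stood at 145, 149 and 148 CPM in DMSO D6 and 63.2, 54.4 and 70.3 CPM in Torin D6, a 2.36-fold fall (log2 fold change −1.24 ± 0.094 SE, adjusted p = 1.39e-06). In D12 the values were 146, 146 and 158 CPM with DMSO and 89.5, 101 and 105 CPM with Torin, a 1.52-fold fall (log2 fold change −0.61 ± 0.093 SE, adjusted p = 0.000599). Neither arm overlapped with its DMSO libraries. Estradiol raised Vim from 270.0, 308 and 316 CPM to 374, 358 and 342 CPM, by 1.201-fold (log2 fold change 0.26 ± 0.056 SE, adjusted p = 0.00194). Nes, another intermediate filament gene, moved the same way in D6 (−0.69 ± 0.17) and with estradiol (0.87 ± 0.06), and its value in D12 was 0.30 ± 0.17 (SE; adjusted p = 0.243). Synm, a further member of the 4 tested in that list, fell with estradiol (−0.79 ± 0.16) and in D12 (−1.05 ± 0.26), and its value in D6 was −0.05 ± 0.25 (SE; adjusted p = 0.897). Of the list, no other gene passed in these comparisons.

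The RefSeq window of Vim (GRCm38.p6, chr2:13574061-13574310, plus strand) is shown because it was the one printed here with a TATA box.
Vim: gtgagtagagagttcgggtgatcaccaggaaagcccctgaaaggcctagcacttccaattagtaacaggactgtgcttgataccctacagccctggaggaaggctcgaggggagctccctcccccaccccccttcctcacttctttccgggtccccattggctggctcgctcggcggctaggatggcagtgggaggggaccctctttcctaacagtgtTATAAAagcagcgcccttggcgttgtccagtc
The match lay 32 bases before the start. TATAAA occurred in 12.4%, TGANTCA in 6.75%, GGAATG in 12.6% and the CArG box in 1.47% of the 32851 windows.

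The Torin effect differed between the arms for 7 of the 10 genes, always toward a smaller fall or a rise in D12. The difference of the log2 fold changes, D12 minus D6, was 2.12 ± 0.41 (SE; adjusted p = 0.00636) for Lum, 1.64 ± 0.30 (SE; adjusted p = 0.00475) for Pdgfra and 1.64 ± 0.21 (SE; adjusted p = 0.000416) for Pdgfrb. It was also above 0 and called for Fbln1, Fbln2, Gsn and Vim, at 0.60 to 0.76. Over all genes tested 10.6% were called, 5.03% higher and 5.55% lower, and a difference of at least 2-fold was called for 5.2% of them and for 3 of the 10. The median was −0.026 over all genes, beside 0.76 for the 10. For Dcn the difference was 0.76 ± 0.35 (SE; adjusted p = 0.206), for Thy1 0.64 ± 0.31 (SE; adjusted p = 0.239) and for Fap 1.87 ± 0.64 (SE; adjusted p = 0.0895), none of which passed, though Fap did without Torin D6 replicate 1 (2.45, adjusted p 0.0493).

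The DMSO libraries of the arms were closer to each other. None of the 10 genes passed between DMSO D12 and DMSO D6 in edgeR, DESeq2 or limma, where 0.00552% of all genes were called in edgeR. At an unadjusted p under 0.05 there was 1 gene, Lum, whose log2 difference was −0.63 ± 0.28 (SE; unadjusted p = 0.0458, adjusted p = 1). Its DMSO D6 libraries all lay above its DMSO D12 libraries; the groups did not overlap for 12.2% of all genes. The mean of Lum was 43.4 ± 10.8 CPM (SD, n = 3) in DMSO D6, 28.1 ± 1.86 in DMSO D12, 21.0 ± 8.24 in Torin D12 and 7.51 ± 2.10 in Torin D6, and in this order Torin D12 and DMSO D12 did not differ beyond their spread.

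Ratios between related markers within a library show how the pairs stood to each other. They are ratios of counts, not of molecules per length, and the pairs were chosen after the values were seen. The Pdgfrb to Pdgfra ratio was 1.67, 1.62 and 2.00 in DMSO D6 and 4.47, 5.62 and 5.06 in Torin D6. It was 1.78, 2.39 and 1.47 in DMSO D12 and 5.08, 6.68 and 4.13 in Torin D12. The log2 shift was 1.52 ± 0.13 (SE) in D6 and 1.49 ± 0.29 in D12, although Pdgfrb itself fell in D6 and rose in D12. With estradiol this ratio moved from 0.842 ± 0.0565 to 1.53 ± 0.0489 (SD, n = 3), a log2 shift of 0.86 ± 0.062. The Fbln2 to Fbln1 ratio moved from 21.2 ± 1.85 to 55.9 ± 7.45 in D6, from 23.5 ± 1.76 to 60.6 ± 1.39 in D12 and from 8.90 ± 0.723 to 14.8 ± 0.388 with estradiol. Its log2 shifts were 1.40 ± 0.14 and 1.37 ± 0.064 in the Torin arms, and the difference between the arms was −0.027 ± 0.15 (SE). The Lum to Dcn ratio went from 0.504 ± 0.181 to 0.214 ± 0.0265 in D6, was 0.371 ± 0.0510 and 0.418 ± 0.0266 in D12, where the groups overlapped, and moved from 0.319 ± 0.0657 to 0.550 ± 0.0667 with estradiol. The Vim to Gsn ratio moved from 2.22 ± 0.269 to 3.10 ± 0.172 with estradiol, from 0.394 ± 0.0137 to 0.524 ± 0.0307 in D12, and from 0.409 ± 0.0278 to 0.538 ± 0.107 in D6, where the groups overlapped. In the family of 18 two-sided exact permutation tests of these and 2 further ratios, groups that did not overlap had p = 0.1, the smallest p that 3 against 3 libraries allow, and 0.138 after Benjamini-Hochberg adjustment, so no ratio could pass.

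**Figure D3:**
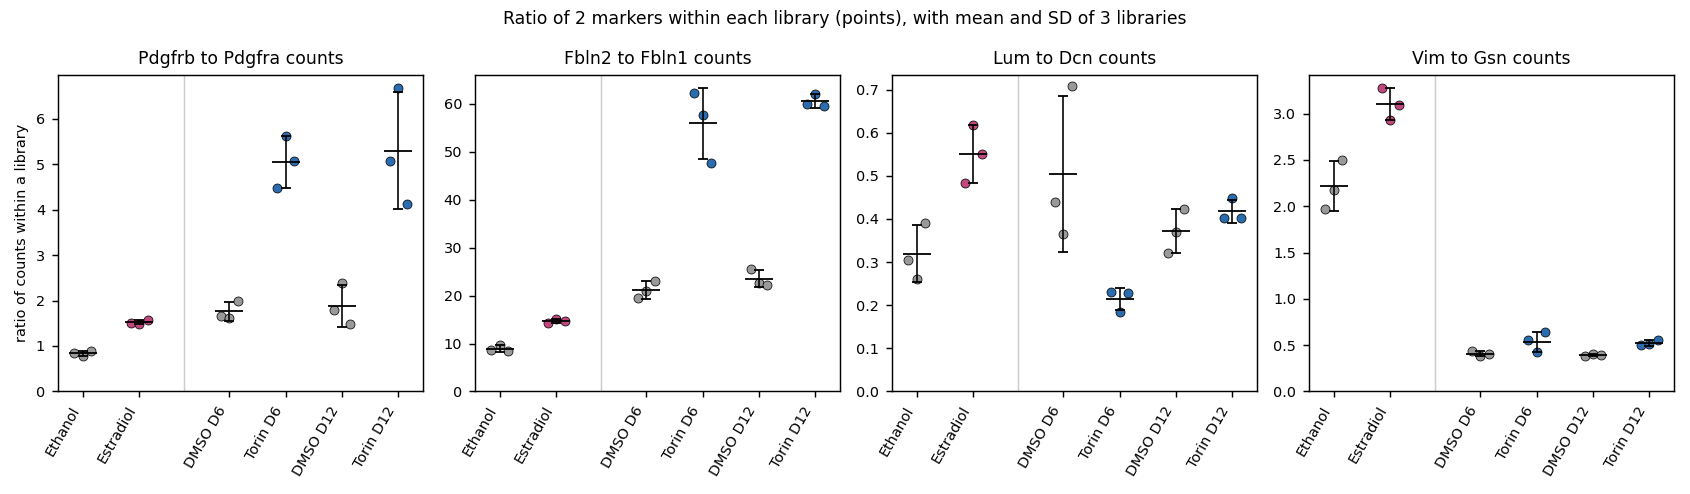
Ratio of counts of 4 pairs of markers in each library (linear axes from 0), with points for libraries and the mean and SD of 3 libraries; the vertical line separates the experiments. The Pdgfrb to Pdgfra and Fbln2 to Fbln1 ratios are higher in every Torin library than in every DMSO library of either arm.

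The wider set of fibroblast genes outside collagens held 27 genes, of which 26 were tested with Torin. In D6 18 fell and 4 rose: Igf1, a growth factor of stromal cells, went from 138 to 12.97 CPM (log2 fold change −3.41 ± 0.099 SE, adjusted p = 1.49e-09), and Sparc, a collagen-binding matrix protein, from 558 to 156 CPM. In D12 7 fell and 4 rose: Igf1 had a log2 fold change of −2.45 ± 0.095, whereas Cxcl12, a stromal chemokine, rose from 67.8 to 171 CPM (log2 fold change 1.33 ± 0.087 SE, adjusted p = 2e-06). With estradiol 6 rose and 6 fell of 23 tested, among them the antioxidant enzyme Gpx3 (2.56 ± 0.15) and the Wnt antagonist Sfrp1 (−0.94 ± 0.074). The 8 chains of collagens I, III, V and VI were given for comparison: all 8 fell in D6, with Col1a1 from 407 to 92.2 CPM, and all 8 rose with estradiol, by a median of 0.68. In D12 Col6a1 and Col6a2 rose, the other 6 did not pass, and the median was 0.22. Of 13 mesenchymal transcription factor genes tested, 6 fell and 1 rose in D6, with Osr1, a factor of embryonic mesenchyme, at 0.89 ± 0.085 and Zeb1 and Snai1, which repress epithelial genes, at −1.02 ± 0.17 and −1.05 ± 0.15, and 3 rose in D12, among them the stromal factor Ebf1 (1.02 ± 0.16).

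Markers of other cell types moved in the same libraries. In D6, 6 of 12 pan-epithelial markers rose and 2 fell, and their sum was 7971 to 9399 CPM with DMSO and 10465 to 12023 CPM with Torin. In D12, 7 fell, and the sum was 9949.8 to 10286 CPM with DMSO and 6599.7 to 8179.7 CPM with Torin. The basal keratin Krt5 fell in both arms, from 688 to 75.2 CPM in D6 and from 825 to 378 CPM in D12. The 11 basal and myoepithelial markers, which share Krt5 and Krt14 with the pan-epithelial list, summed to 2265 to 2599 and 1591 to 2019 CPM in D6, to 2934 to 3043 and 1739 to 2233 CPM in D12, and to 8098 to 8601 CPM in ethanol and 8308 to 8779.8 CPM in estradiol libraries. Single genes of that list did not all follow its sum: 4 rose and 2 fell in D6 (median 0.014), 2 rose and 3 fell in D12, and 1 rose and 7 fell with estradiol (median −0.45), where Mylk, a kinase of contraction, was at −0.77 ± 0.08. Against ethanol, 7 of the 12 pan-epithelial markers rose and 2 fell with estradiol, and their sum was 12799 to 13364 CPM with ethanol and 13186 to 13719 CPM with estradiol. The part of these cells in the values of the 10 genes was not tested.

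**Figure D4:**
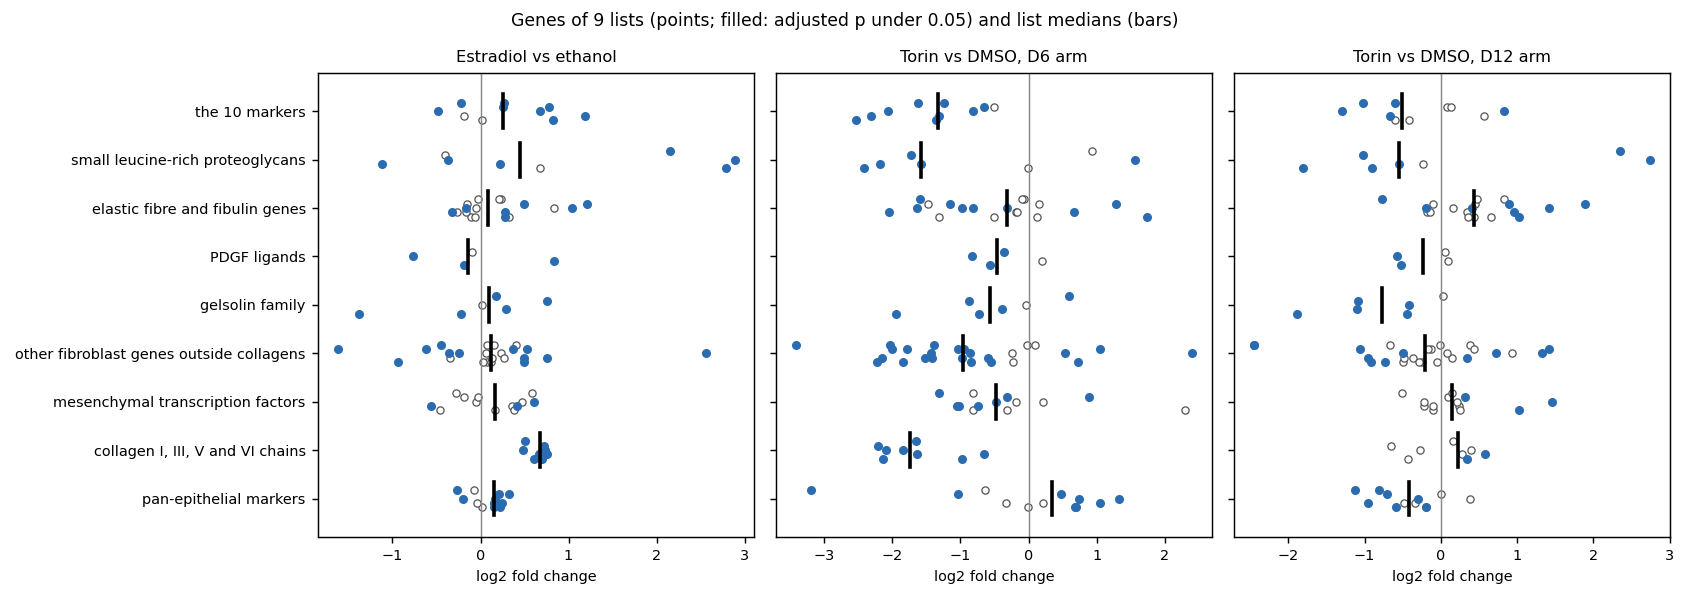
Log2 fold change of every tested gene of 9 lists (points, filled where the adjusted p was under 0.05) with list medians (bars), for 3 comparisons with separate horizontal scales. The 10 markers and the collagen chains have medians of −1.33 and −1.74 in D6, whereas in D12 they lie at −0.51 and 0.22.

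Over the 12 Torin libraries the 45 pairs of the 10 genes had correlations of log2 CPM of 0.26 to 0.99. Their median was 0.74, and 0.21 once each group's mean was taken out. Over the 6 libraries of the estradiol experiment the same pairs ran from −0.96 to 0.997. The median there was 0.060, and 0.0027 with group means taken out. These points share groups and libraries, so the values are a description. The genes most alike in pattern, by Pearson correlation among 10730 candidates over the 12 Torin libraries, differed between the members. Sparc was among the 3 nearest genes of Lum, Pdgfra and Vim, with 0.97, 0.97 and 0.99. Lum was nearest to Ddr2, a collagen receptor, at 0.98, Pdgfra to C1qtnf6 at 0.98, and Pdgfrb to the collagen chain Col6a2 at 0.98. Gsn was nearest to Isoc2b and Xbp1, a factor of the secretory pathway, both at 0.997, and Fbln1 to Cfap418, Acss2 and Upk3a, all at 0.99. Fbln2 was nearest to Cdc42se1 (0.98) and Dcn to Sub1 (0.98), and the nearest genes of Thy1 (Fbxl15, 0.92) and Fap (Ints6l, 0.91) were less close.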

How the data were processed

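Polyadenylated RNA of 18 libraries (6 groups of 3) was sequenced as paired ends from a directional kit, per the labels' protocols. Tools named in the submitters' processing notes, without versions, are kallisto, DESeq2, cutadapt, Trim Galore, MultiQC and FastQC, with genome GRCm39; the annotation and use of strand in counting are not given in the sources used here. The authors deposited estimated counts for estradiol (32.2% not whole, rounded here) and whole-number counts for Torin. Normalized values, a signal that the authors deposited too, served only in alternatives and in the gene factors. Gene symbols deposited with them were used for the estradiol counts.

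Each experiment was fitted alone in R 4.3.3 with edgeR 4.0.16: filterByExpr, TMM, quasi-likelihood test on group means, adjusted p under 0.05. Standard errors are the log2 fold change over the root of F. "Rose" and "fell" mean calls. The biological coefficient of variation was 5.27% (estradiol) and 20.2% (Torin). The estradiol test and the Torin test in D6 were also run on simulated counts with a common spread for all genes. The other comparisons were not simulated, and no simulated library stood apart as the third Torin libraries did. Alternatives used DESeq2 1.42.0 and limma 3.58.1 (log2 of value + 1, mean of at least 10), and 2 were added after seeing the data. In these, gene factors computed from deposited counts over normalized values served as offsets, or the third Torin library of both arms was left out. The members and lists were chosen with earlier results of these data known. Named beside the 10 genes were at most 3 genes of lowest p per list and comparison, marker genes of other cell types, and the 3 genes of highest correlation. Torin samples beyond the 12 used were not analysed here.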

Additional observations from a re-analysis of the deposited data

Results flagged for a closer look

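The Torin effect differed between the arms by edgeR's test of the difference itself (D12 minus D6, log2 scale, adjusted p under 0.05) for 7 of the 10 genes. The difference was 2.12 for Lum, 1.64 for Pdgfra and 1.64 for Pdgfrb. For the fibulins it was 0.758 (Fbln1) and 0.725 (Fbln2), and for the cytoskeletal genes 0.605 (Gsn) and 0.631 (Vim). All 7 were called with the third Torin library of both arms left out.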

How the results depend on the processing

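Of 866 values of single genes under alternatives, 814 kept their direction and side of the threshold. An adjusted p under 0.01 left 3397 genes called with estradiol, 4586 in D6, 2733 in D12 and 842 in the difference, and a fold of at least 2 left 627, 2892, 1411 and 941, with 1 of the 10 markers for estradiol, 2 in D12 and 3 in the difference. Between DMSO arms 1 gene was called, and 4 with no filter, 14 in DESeq2 and 16 with the 2 groups alone. Without the third Torin library of both arms 3308 genes were called in the difference, and the markers called were 9 in D6 and 7 in D12. For D6 and D12 in this setting, and for the replicate block below, the share of all genes called is not given. Those marker counts cannot be set against all genes. Leaving out 1 library gave 4191 to 4828 genes called with estradiol, 5595 to 7082 in D6, 3260 to 4634 in D12 and 1219 to 2307 in the difference, the lowest without DMSO D6 replicate 3, and 7 to 8, 8 to 9, 4 to 6 and 7 to 8 markers. Replicate numbers did not pair the libraries (same-number correlations −0.094 to 0.047). With the replicate block 8, 9, 5 and 7 markers were called; Thy1 in D6 passed (adjusted p 0.0313) and Fap did not (0.0545). Fap in D6 also lost its call with no filter (0.0744), with the 2 groups alone (0.1001) and without the third Torin library of both arms (0.153). The Fap difference between the arms was called in limma (0.0197) and with gene factors as offsets in edgeR (0.0189). Signs turned for uncalled values: Dcn with estradiol was −0.00047 with gene factors as offsets and −0.118 to 0.181 with 1 library left out, Thy1 in D12 −0.082 without the third Torin library of both arms and −0.0998 to 0.275, and between DMSO arms Fap −0.328 to 0.288 and Vim −0.0152 to 0.0416. The cause was not tested. Fap, with 23 to 79 counts per group, had the fewest counts of the 10.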

Other observations

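The factors between deposited counts and deposited normalized values, computed here relative to the library median, varied between libraries for Pdgfra and Fap. The highest factor was 1.44 times the lowest for Pdgfra in each experiment, and 1.60 times (estradiol) and 2.81 times (Torin) for Fap. A wider range was held by 11.3% and 17.3% of genes tested for Pdgfra, and by 7.78% and 2.89% for Fap. With these factors as offsets, Pdgfra in D12 was −0.77 (adjusted p 0.0354 in edgeR), and Fap was 0.95 with estradiol (adjusted p 0.0712). The Fap difference between the Torin arms, D12 minus D6, was then 2.28 and was called (adjusted p 0.0189 in edgeR).

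Of the 6 Schwann cell markers tested with Torin, 3 fell in D6 and 1 in D12, and none rose. Mbp, a myelin gene, fell in both Torin arms, from 31.0 to 19.7 CPM in D6 and from 34.2 to 18.5 CPM in D12. The summed level of the 6 was 275 to 282 CPM in DMSO D6 and 285 to 358 CPM in Torin D6. It was 261 to 313 CPM in DMSO D12 and 262 to 414 CPM in Torin D12. Ncam1 went from 173 to 253 CPM in D6 and did not pass (adjusted p 0.0564 in edgeR). Of the 4 immune markers tested, Cd68, also a lysosomal gene of other cells, fell from 7.38 to 1.303 CPM in D6 and from 9.38 to 1.45 CPM in D12. Csf1r fell in D6, from 0.617 to 0.201 CPM, Ptprc rose there, from 0.132 to 0.419 CPM, and Cd14 did not pass in either arm (adjusted p 0.149 and 0.420 in edgeR).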
